A study of Mus musculus with 8 samples.

Results

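Rbfox1, Csmd1, Lsamp, Dlg2, Lrp1b, Ptprd, Macrod2, Cntnap2 and Nrxn3 are 9 brain genes that span more than a megabase each. They were followed through every CpG site that carries their symbol in the promoter, exon or intron column of the deposited DNA hydroxymethylation counts, and through the deposited RNA values. The 9 genes are among 20488 genes with such a site, and their 3910 sites are among 1497075 sites in all. The genes had been listed by name, not picked by a measured value, although earlier results of these data were known when the list was made.

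Hydroxymethylation was measured by reduced representation hydroxymethylation profiling (RRHP) and RNA by RNA-sequencing in adult oligodendrocyte progenitor cells (aOPC) and adult oligodendrocytes (aOL) from mouse brain at postnatal day 60. The aOPC were sorted as EGFP-positive cells from Pdgfra-H2BEGFP mice and the aOL from Plp-EGFP mice, both labelled C57BL/6 and of either sex, and the question was how the mark and the transcripts differ between progenitors and their differentiated progeny. Each population had 2 RRHP and 2 RNA libraries, numbered replicates 2 and 3, and DNA and RNA came from the same pellet of cells. The tissue label of the aOL RRHP libraries names the Pdgfra reporter, so these libraries were grouped by title. The aOL RNA libraries are titled as pre-myelinating cells while the protocol calls them myelinating, so the stage behind the aOL RNA values is uncertain. A reporter line stands for a population only as far as its promoter is active there, and because each population came from its own line, cell population and mouse line cannot be told apart in any value given here. The methods call the replicates biological, but how many animals went into a library is not given in the sources used here, so p-values measure the spread between these libraries.

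5-hydroxymethylcytosine (5hmC) is made from methylated cytosine by the TET enzymes, is abundant in brain, and lies mostly within gene bodies. In RRHP, DNA is cut at CCGG with the enzyme MspI, adapters are ligated, 5hmC is glucosylated and the DNA is cut again, so that a fragment end whose CCGG is protected keeps its adapter and is read. A count therefore belongs to 1 fragment end on 1 strand, and a CCGG that is absent from the DNA gives no read at all. Very long genes of this kind are known for neuronal adhesion, synapse assembly and channel clustering, and are mostly intron.

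The genes fall into groups by role. Lsamp, an IgLON adhesion molecule, Ptprd, a LAR-type receptor phosphatase of synapses, and Nrxn3, a presynaptic neurexin, act at cell contacts. Dlg2, the scaffold also called PSD-93, and Cntnap2, or Caspr2, organise receptors and potassium channels in the membrane. Csmd1 is a membrane protein with complement control domains, and Lrp1b is an endocytic receptor of the lipoprotein receptor family. Rbfox1 is an RNA-binding regulator of splicing, and Macrod2 removes ADP-ribose from proteins.

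On GRCm38, RefSeq places Rbfox1 at chr16:5884793-7412480 and Lsamp at chr16:39984254-42181679, Dlg2 at chr7:90476188-92449246, Macrod2 at chr2:140395303-142392966, Cntnap2 at chr6:45060061-47301393 and Nrxn3 at chr12:88722701-90334935, all on the plus strand. Csmd1 at chr8:15892538-17535385, Lrp1b at chr2:40595290-42653598 and Ptprd at chr4:75941237-78211742 lie on the minus strand. The lengths run from 1528 kb for Rbfox1 to 2271 kb for Ptprd. The authors' symbols covered at least 95.1% of the span in 7 of these genes, but 68.7% of Dlg2, from 91090980 on, and 27.1% of Lsamp, from 41538130 to 42133984. In the unlabelled remainder of Lsamp lay 377 sites with counts-per-million (CPM) values of 187 and 221 in aOPC replicates 2 and 3 and 229 and 234 CPM in aOL replicates 2 and 3. These were not counted as Lsamp.

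Of the 3910 sites, 3811 were intronic, 98 exonic and 99 in promoters, and 80 lay in CpG islands (a site may hold more than 1 label). In all 4 libraries 1770 sites had a read, and 993 had the 10 reads in at least 2 libraries that a test required.

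The sequences that carry the clearest differences all hold the MspI site CCGG, shown in capitals, on the plus strand of GRCm38. The first set shows 60 bases around the 4 sites of the 9 genes with the strongest changes among well-read sites, all in Rbfox1 introns. The second set shows the whole fragment between neighbouring CCGG, for the most-read short fragment that was called at both ends in Rbfox1 and in Dlg2, chosen after the values were seen.
Rbfox1 site 7255545, chr16:7255515-7255574: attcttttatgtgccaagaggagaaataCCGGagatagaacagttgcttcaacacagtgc
Rbfox1 site 6029160, chr16:6029130-6029189: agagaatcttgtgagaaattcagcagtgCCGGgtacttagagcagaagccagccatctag
Rbfox1 site 6747439, chr16:6747410-6747469: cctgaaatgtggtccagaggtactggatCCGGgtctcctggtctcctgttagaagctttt
Rbfox1 site 5955567, chr16:5955537-5955596: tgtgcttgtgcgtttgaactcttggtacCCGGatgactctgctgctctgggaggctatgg
Rbfox1 fragment, chr16:5955305-5955568: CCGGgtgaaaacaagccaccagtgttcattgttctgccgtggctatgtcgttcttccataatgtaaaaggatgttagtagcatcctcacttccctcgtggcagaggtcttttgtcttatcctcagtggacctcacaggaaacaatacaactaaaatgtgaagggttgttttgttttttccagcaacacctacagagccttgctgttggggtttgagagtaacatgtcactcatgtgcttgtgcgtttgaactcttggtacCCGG
Dlg2 fragment, chr7:92280805-92280961: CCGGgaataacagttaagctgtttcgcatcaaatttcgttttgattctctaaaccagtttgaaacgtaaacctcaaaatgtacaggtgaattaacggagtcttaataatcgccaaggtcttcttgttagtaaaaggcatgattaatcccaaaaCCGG

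RRHP libraries held 7113237 (aOPC replicate 2), 17121440 (aOPC replicate 3), 15923775 (aOL replicate 2) and 27057859 counts (aOL replicate 3). A floor of 3 counts is 0.422, 0.175, 0.188 and 0.111 CPM in the same order, with the library's total count as the denominator of CPM. Intervals and floors cover counting error only, since no molecular identifiers are stated for the reads. The shallow aOPC replicate 2 also stood apart in its scaling: its promoter counts took a scaling factor of 1.75, against 0.757 to 0.936 in the other 3 libraries.

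Summed over the whole gene body, none of the 9 genes passed the test between the populations, although each had at least 547 counts in every library. Together they held 0.205% (Wilson 95% interval 0.201 to 0.208) and 0.224% (0.222 to 0.226) of all counts in the aOPC libraries and 0.229% (0.227 to 0.232) and 0.222% (0.220 to 0.223) in the aOL libraries. The groups overlapped, and an exact two-sided permutation test gave p = 0.667, where 2 libraries against 2 allow no p below 0.3333. By the edgeR quasi-likelihood test over 18488 gene bodies, 0 of the 9 were called at an adjusted p below 0.05, against a background of 0.849% of all gene bodies, and 1 of the 9 (Dlg2) had an unadjusted p below 0.05. DESeq2 called 0 of the 9 as well. Their median log2 difference (aOL minus aOPC, as for all differences given) was 0.02, against -0.0027 over all gene bodies tested. Their median absolute difference was 0.09, against 0.18 over all gene bodies. Over the 206 other gene bodies of at least 500 kb, of which 3 were called, it was 0.10. A length of at least 500 kb, here and below, is the distance between the first and last site with the symbol.

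Dlg2 had the largest difference. It gave 266 and 274 CPM in aOPC and 377 and 323 CPM in aOL, so that both aOL libraries lay above both aOPC libraries (270.3 ± 5.52 against 350.3 ± 38.0, SD, n = 2 each), with a log2 difference of 0.36 (SE 0.13, unadjusted p = 0.0212, adjusted p = 0.537 by edgeR). Lsamp gave 76.9 and 105 CPM in aOPC and 110 and 109 CPM in aOL (log2 difference 0.24, SE 0.16), and Nrxn3 gave 112 and 122 against 137 and 137 CPM (0.21, SE 0.12). Cntnap2 was the single gene with both aOL libraries below both aOPC libraries, at 233 and 220 against 213 and 215 CPM (-0.09, SE 0.12). Groups without overlap were common, at 38.8% of all gene bodies, beside these 4 of 9. Scaled on the read totals that the methods state, the median of all gene bodies moved to 0.37, and Cntnap2 and Rbfox1 moved to 0.29 and 0.19, both below that median.

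The remaining 5 genes overlapped between the populations. Lrp1b gave 302 and 362 CPM in aOPC and 361 and 348 CPM in aOL, and Macrod2 324 and 337 against 336 and 338 CPM. Ptprd gave 276 and 271 against 272 and 279 CPM, and Csmd1 190 and 225 against 212 and 208 CPM. Rbfox1 gave 266 and 324 CPM in aOPC and 278 and 259 CPM in aOL, a log2 difference of -0.15 (SE 0.14). The adjusted p was between 0.749 and 0.998 for the 8 genes other than Dlg2. Without aOPC replicate 3, Lsamp (0.52, adjusted p = 0.00104) and Dlg2 (0.41, adjusted p = 0.0204) were called by edgeR, in a fit that called 4246 gene bodies in all and took the lone aOPC library to vary like the others. Without aOPC replicate 2, Lsamp gave 0.032 (adjusted p = 0.9995) and Dlg2 0.33 (adjusted p = 0.398).

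**Figure D1:**
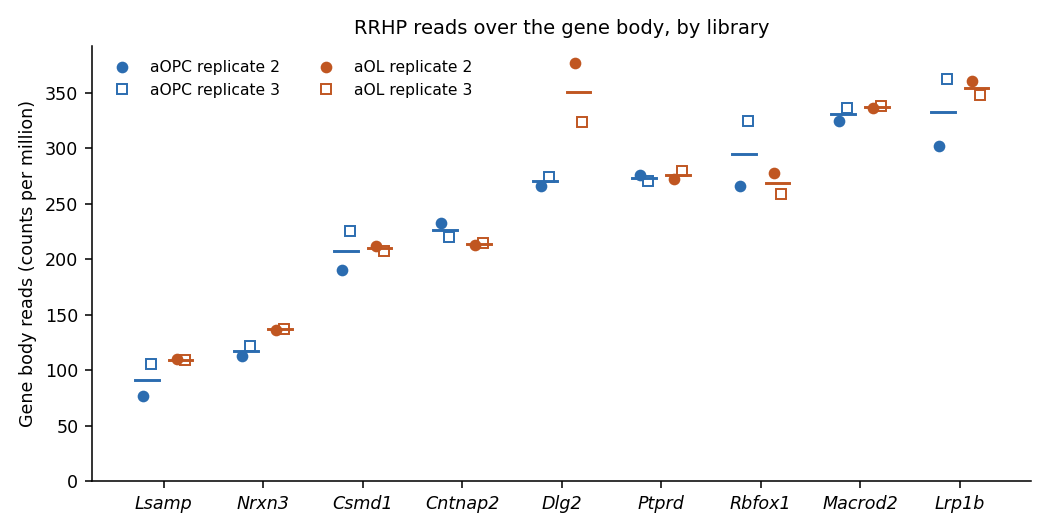
Reads over each gene body in CPM (y axis, from 0) for the 9 genes (x axis), with 1 point per library (blue aOPC, orange aOL, filled circles replicate 2, open squares replicate 3) and a bar at the mean of 2 libraries. Dlg2 shows the widest gap between the populations, 266 and 274 against 377 and 323.

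Compared per CCGG of the labelled span, 8 of the 9 genes lay below the median of all genes. The mean over the 4 libraries was highest in Dlg2, at 0.685 CPM per CCGG (percentile 57.3 among 14398 gene bodies with at least 10 CCGG and 83.6 among 220 of at least 500 kb). It was followed by Lrp1b at 0.541, Macrod2 at 0.519, Rbfox1 at 0.485, Lsamp at 0.434, Ptprd at 0.413, Csmd1 at 0.347, Cntnap2 at 0.322 and Nrxn3 at 0.280 CPM per CCGG. The ranges over libraries overlapped between neighbours in this order from Lrp1b down to Ptprd and between Csmd1 and Cntnap2, but not between Ptprd and Csmd1, while Dlg2 (0.588 to 0.833) lay above the other 8 in each library and Nrxn3 (0.248 to 0.303) below them. The median was 0.434 for the 9 genes, 0.443 for gene bodies of at least 500 kb and 0.608 for all.

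All 9 genes hold few CCGG for their length. They had 29.3 (Ptprd) to 38.8 (Lsamp) CCGG per 100 kb, percentiles 0.972 to 4.34 among all gene bodies, against a median of 113. A read was found at 36.3% (Rbfox1) to 50.5% (Lrp1b) of the CCGG of the labelled span, as a mean over libraries, against a median of 60.7% over all gene bodies. Per 100 kb of gene this made 8.28 (Nrxn3) to 22.9 CPM (Dlg2), against a median of 72.9.

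Along each gene the mark was uneven. With the labelled span divided into 10 equal parts from the 5′ end, the level per CCGG differed 13.4 times between the highest and lowest part of Rbfox1 (part 2 at 0.851 and part 5 at 0.0633 CPM per CCGG), the widest spread of the 9, and 2.04 times in Cntnap2, the narrowest. The same part was highest in all 4 libraries in 6 genes (Rbfox1, Lsamp, Dlg2, Ptprd, Macrod2 and Nrxn3), in 3 libraries in Lrp1b and Cntnap2, and in 2 in Csmd1. The peak of the mean lay near the 5′ end in Nrxn3 (part 1), Rbfox1 and Macrod2 (part 2), and toward the 3′ end in Ptprd (part 9) and Cntnap2 (part 8). In Csmd1 part 8 was highest in both aOPC libraries, at 0.680 and 0.786 CPM per CCGG. In both aOL libraries of Csmd1 part 2 was highest, at 0.764 and 0.667 against 0.724 and 0.620 in part 8.

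In steps of 100 kb from the RefSeq start site, the densest segment of all was that of Macrod2 from 200 to 300 kb, with 71.0 and 74.4 CPM in aOPC and 77.9 and 73.5 CPM in aOL, together 22.2% of the gene's counts. The densest segment of Rbfox1, from 400 to 500 kb, had 37.7 and 46.2 against 48.5 and 44.7 CPM. Neither was called, and the groups overlapped in both. That of Csmd1 (1200 to 1300 kb) had 39.6 and 47.0 against 42.3 and 35.7 CPM, that of Lrp1b (700 to 800 kb) 36.0 and 55.5 against 52.8 and 47.6 CPM, and that of Ptprd (1800 to 1900 kb) 28.8 and 40.1 against 45.0 and 36.1 CPM. Lsamp peaked from 1900 to 2000 kb with 18.4 and 30.8 against 31.6 and 28.8 CPM, Cntnap2 from 1600 to 1700 kb with 19.0 and 18.5 against 16.5 and 20.1 CPM, and Nrxn3 from 100 to 200 kb with 18.4 and 23.7 against 27.4 and 24.4 CPM. None of these 6 was called.

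Of the 154 segments of the 9 genes that could be tested, 3 were called by edgeR over 6435 segments of long genes, against a background of 1.31%. Dlg2 from 1800 to 1900 kb, also its densest segment, rose from 28.5 and 34.2 CPM in aOPC to 78.0 and 66.2 CPM in aOL (log2 difference 1.10, SE 0.11, adjusted p = 0.00381). Rbfox1 fell in its first 100 kb, from 28.4 and 27.2 CPM to 4.71 and 4.99 CPM (-2.60, SE 0.18, adjusted p = 0.00111), and from 1200 to 1300 kb, from 22.9 and 30.5 CPM to 13.4 and 12.9 CPM (-1.13, SE 0.16, adjusted p = 0.0124). Scaled on the read totals of the methods, the segments of Dlg2 (1.53) and of Rbfox1 from 1200 to 1300 kb (-0.72) each had an adjusted p of 0.757 by edgeR.

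When the sums took in only sites that each library had read 3 times or more, the Dlg2 segment gave 1.07 (SE 0.11) and was called, and Rbfox1 gave -0.14 (adjusted p = 0.945 by edgeR) in its first 100 kb and 0.29 (adjusted p = 0.828) from 1200 to 1300 kb. This limit removes by construction the sites with no read in one population, which were most of the called sites of Rbfox1, so the values describe the remaining sites and are no test between the genes. The differences of the segments also spread more widely in Rbfox1 than in most long genes, with an SD of 0.97 over 16 segments, rank 3 of 107 genes of at least 500 kb with at least 7 tested segments (median SD 0.22). Nrxn3 (0.55 over 17 segments), Csmd1 (0.52 over 16) and Dlg2 (0.51 over 14) ranked 9, 10 and 11, and the other 5 genes ranked 18 (Ptprd) to 97 (Lsamp, 0.14 over 7).

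**Figure D2:**
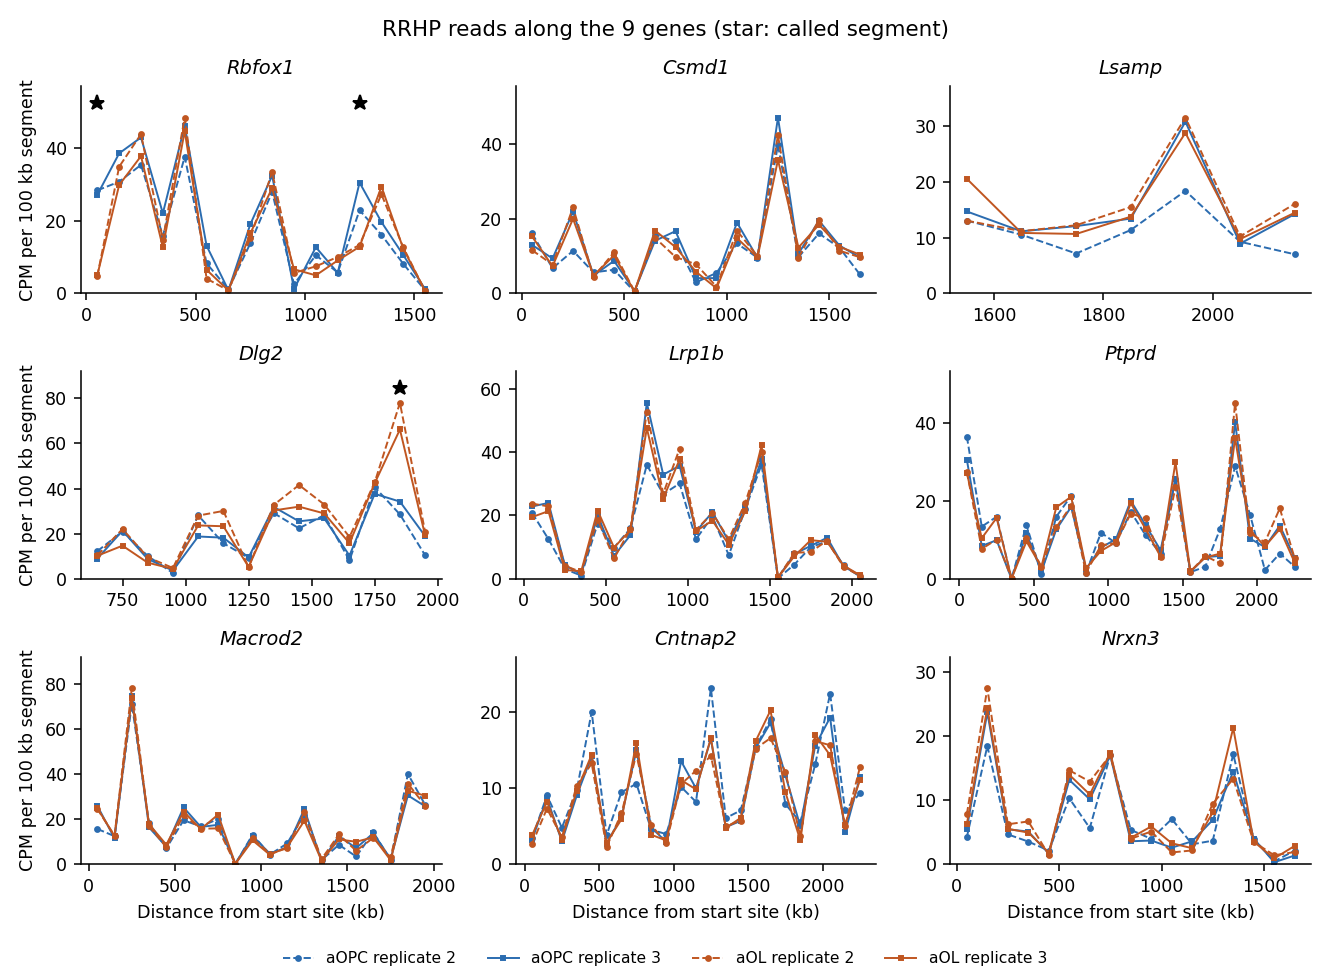
CPM in successive 100 kb segments (y axis, from 0, scaled per panel) against distance from the RefSeq start site in kb (x axis), 1 panel per gene and 1 line per library (blue aOPC, orange aOL, dashed with circles replicate 2, solid with squares replicate 3), with a star at called segments. The stars mark Rbfox1 at 0 to 100 and 1200 to 1300 kb, where aOPC is higher, and Dlg2 at 1800 to 1900 kb, where aOL is higher, and Lsamp and Dlg2 begin where the labels begin.

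At single sites, 64 of the 993 tested sites of the 9 genes were called by edgeR at an adjusted p below 0.05 (6.45%), against 2.29% of 443062 sites in all. Of these, 36 were higher in aOL (background 1.21%) and 28 lower (background 1.08%). Rbfox1 held 31 of the calls among 132 tested sites (23.5%) and Dlg2 held 23 among 106 (21.7%). The other 7 genes held 10 among 755 (1.32%), of which 7 of 92 lay in Csmd1, 2 of 122 in Ptprd and 1 of 148 in Macrod2. In Lsamp (43 tested), Lrp1b (154), Cntnap2 (119) and Nrxn3 (77), 0 sites were called, with 3, 12, 4 and 6 sites at an unadjusted p below 0.05.

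By the share of sites called, Rbfox1 and Dlg2 ranked 5 and 6 of 157 genes with at least 40 tested sites. These 157 genes spanned at least 500 kb from first to last labelled site, and 61 of them had no called site. Ptprg, Erbb4, Sgcz and Mir669e ranked higher (24.0% to 34.4%). Among 1157 genes of any length with as many tested sites, Rbfox1 and Dlg2 ranked 19 and 28. The requirement of 10 reads in at least 2 libraries admits a site through 1 population alone, which had to differ, so these ranks describe the calls, and with 10 reads required of each of the 4 libraries 0 sites were called in Rbfox1 and 4 in Dlg2. None of the called sites was exonic, promoter or CpG island, but only 23, 2 and 2 of the tested sites were. Sites within repeats, as masked in the reference, made up 557 of the 993 tested and 18 of the 64 called.

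The called sites of Rbfox1 were mostly read in 1 population alone, and those of Dlg2 mostly in both. In Rbfox1, 29 of 31 called sites had at most 3 reads in each library of the lower population, as a description of the sites that the calls chose. Among all sites of the gene, called or not, 16 had reads in aOPC alone and 8 in aOL alone, with 10 or more in each library of that population, out of 2419 and 2857 such sites over all sites. In Dlg2 this near-absence was seen at 7 of 23 called sites, and 1 site had reads in aOPC alone and 2 in aOL alone by the same count. Over all called sites, 76.4% had at most 3 reads in each library of the lower population.

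In Rbfox1, 12 sites rose in aOL and 19 fell, mixed along the gene from 50.2 to 1371 kb after the start site. In order of position the direction changed 11 times. Some of these changes lie side by side. The reference fragments of the rising sites 7255545, 6029160, 6756558 and 7143322 each end at a CCGG where the adjoining fragment lost its reads. Those called lower sites are 7252873, 6027775, 6756100 and 7145737, in the same order. Whether such a rise and fall are separate changes was not tested. The strongest rise among sites that both libraries of the higher population had read 50 times or more was at 7255545, an intronic site 1371 kb into the gene, with 0 and 0 reads in aOPC and 195 and 320 reads in aOL. Against the floor of 3 counts per library this was at least 40.3-fold higher in aOL (adjusted p = 4.19e-06 by edgeR). Sites with at most 3 reads in each library of one population, as here and below, were tested only because the other population had reads. Their p-values are given as a description. At 6029160, 144 kb into the gene, 0 and 0 reads stood against 65 and 91, at least 12.5-fold higher in aOL (adjusted p = 6.28e-05). At 6747439, 863 kb into the gene, 0 and 2 reads stood against 70 and 124 (log2 difference 5.60, SE 0.62, adjusted p = 4.94e-05). This estimate rested on the 2 reads in aOPC and was 9.19 without aOPC replicate 3.

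One called site passed the same limit among those that fell. At 5955567, 70.8 kb into the gene, aOPC had 91 and 180 reads and aOL 0 and 0, at least 77.9-fold lower in aOL (adjusted p = 3.29e-06 by edgeR). Its fragment, printed above, was also called at its other end, 5955306, with 20 and 51 reads in aOPC and 0 and 0 in aOL. Both ends of 1 fragment had been tested for 264 fragments of the 9 genes, 23 of which had a call. Both ends were called in 9, all in the same direction. Over all sites, 2757 of 137218 such fragments had a call and 947 were called at both ends, 939 of them in the same direction. Where both strands of a CCGG were tested, 3 of 45 pairs in the 9 genes had a call and 0 were called on both strands, against 1845 and 321 of 44076 pairs over all sites.

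As a description of sites grouped by their call, which fixes the direction of each sum, the 12 sites called higher in Rbfox1 held 0 and 0.935 CPM in aOPC and 35.9 and 32.7 CPM in aOL, and the 19 called lower held 62.4 and 65.2 CPM and 0.0628 and 0.111 CPM. The sites of the gene that were not called gave 204 and 258 CPM in aOPC and 242 and 226 CPM in aOL, with overlapping groups. None of its 41 sites that reached 10 reads in each of the 4 libraries was called, a limit that leaves out near-absent sites by construction. Of all sites read as often 0.449% were called, and the median log2 difference was -0.13 in Rbfox1 and -0.16 over all of them.

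The called sites of Rbfox1 also differed in the length of the CCGG fragment that the reference predicts. The median reference fragment was 660 bp at the 12 sites that rose, 187 bp at the 19 that fell and 150.0 bp at the 101 that were not called. Of the sites that rose, 11 of 12 belonged to fragments over 300 bp, against 1 of 19 that fell and 21 of 101 not called. In Dlg2, 7 of 19 sites that rose and 0 of 4 that fell were in fragments over 300 bp, with medians of 153 and 145.5 bp. Over all sites near 0 in the other population, 95.5% of 4122 that rose and 8.37% of 3633 that fell were in such fragments, against 16.5% of all tested sites. Among the other called sites the shares were 62.7% of 1256 that rose and 4.67% of 1135 that fell. Whether the genomes of the 2 mouse lines differ from the reference, or from each other, at these CCGG was not tested.

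**Figure D3:**
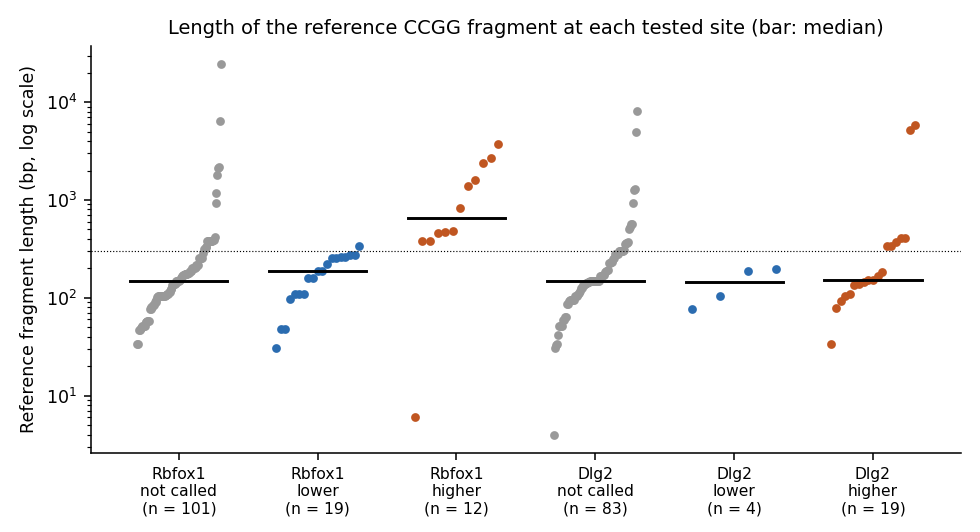
Length in bp (y axis, log scale) of the reference fragment between neighbouring CCGG for every tested site of Rbfox1 and Dlg2, split into sites not called, called lower and called higher in aOL, sorted by length within a column, with a bar at the median and a dotted line at 300 bp. In Rbfox1 the sites higher in aOL have a median of 660 bp and those lower in aOL 187 bp.

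In Dlg2, 19 sites rose and 4 fell, all between 1043 and 1900.0 kb from the RefSeq start site. Most of these sites were read in both populations. Grouped by call, which again fixes the direction, the 19 called higher held 17.2 and 21.8 CPM in aOPC and 92.5 and 75.0 CPM in aOL, and the 4 called lower 11.4 and 12.2 CPM and 0.816 and 1.26 CPM. The sites that were not called gave 238 and 240 CPM in aOPC and 284 and 247 CPM in aOL.

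The Dlg2 fragment printed above lies 1805 kb into the gene, in an intron within the called segment. Its plus-strand end at 92280806 had 28 and 73 reads in aOPC and 220 and 300 reads in aOL (log2 difference 1.49, adjusted p = 0.00615 by edgeR), and its minus-strand end at 92280960 had 19 and 47 against 150 and 190 reads (1.49, adjusted p = 0.0121). Both ends were read in all 4 libraries. Sites that reached 10 reads in each of the 4 libraries numbered 38 in Dlg2, of which 4 were called, against 0.449% of all sites read as often. Beside both ends of this fragment they were 91880918, with 22 and 87 against 222 and 287 reads, and 92376191, with 10 and 33 against 114 and 142 reads, all named after their values were seen.

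**Figure D4:**
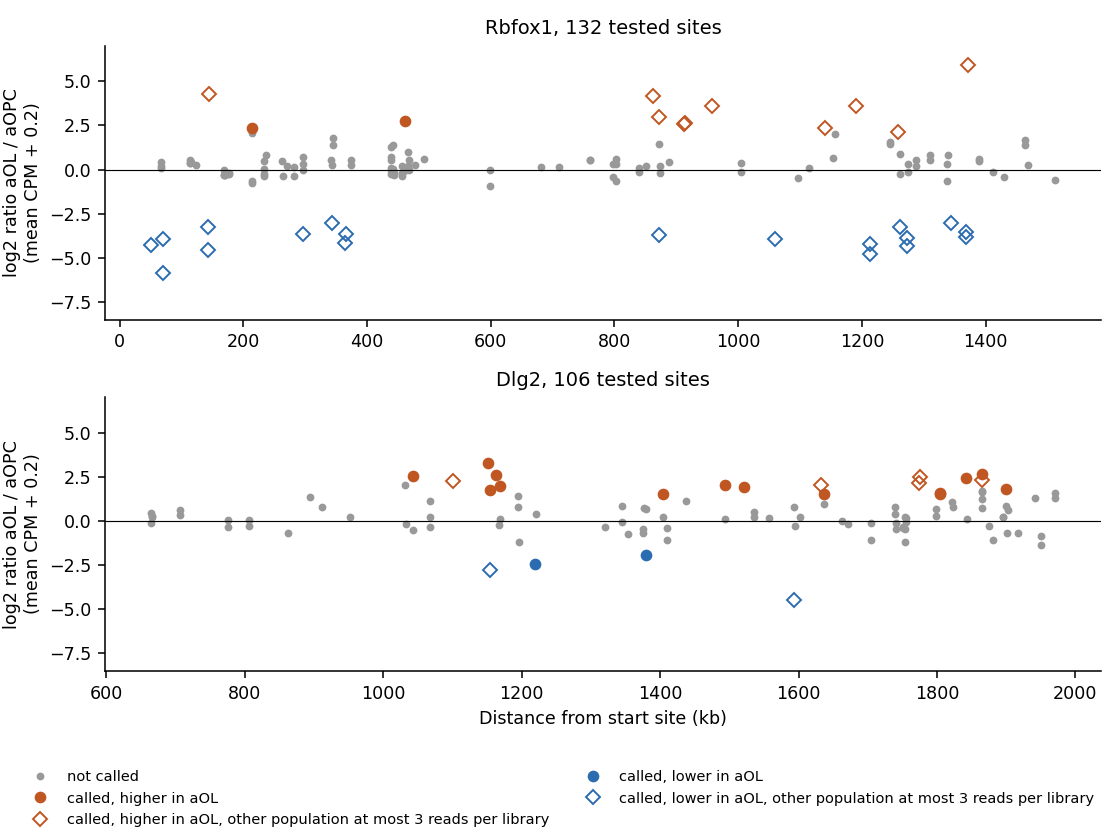
Log2 ratio of aOL to aOPC (y axis, mean CPM over 2 libraries plus 0.2) at each tested site of Rbfox1 and Dlg2 against distance from the RefSeq start site in kb (x axis), grey where not called, orange where called higher and blue where called lower in aOL, with open diamonds where the other population had at most 3 reads per library. Calls in Rbfox1 go both ways and are nearly all open diamonds, and 19 of 23 calls in Dlg2 are higher in aOL.

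The most-read site of each gene was not called in any of the 9. In Dlg2 this was 91881024, with 100 and 255 reads in aOPC and 303 and 396 in aOL. In Rbfox1 it was 6181242, with 46 and 124 against 142 and 217 reads. The log2 difference was between -0.23 and 0.49 at 8 of the 9 sites, and -0.71 (SE 0.28, adjusted p = 0.381 by edgeR) at 47107871 in an exon of Cntnap2, which had 122 and 213 against 175 and 234 reads. In Lrp1b the site was 42638874 (85 and 292 against 302 and 374 reads), in Ptprd 76369667 (94 and 285 against 266 and 422), in Macrod2 140660735 (134 and 279 against 254 and 445), in Csmd1 16298412 (48 and 169 against 193 and 243), in Lsamp 41938654 (38 and 164 against 165 and 225) and in Nrxn3 89254722, which is exonic (22 and 115 against 129 and 197).

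Csmd1 held 7 calls, 2 higher and 5 lower in aOL. At 16280067 the reads went from 40 and 154 in aOPC to 0 and 1 in aOL (log2 difference -8.01, SE 0.62, adjusted p = 4.01e-06 by edgeR). This site entered the test through aOPC alone and its estimate rests on 1 read in aOL, so these values are a description. At 16794128 both populations were read, with 36 and 143 against 46 and 48 reads (-1.68, SE 0.32, adjusted p = 0.00809). Of the 7 sites, 6 had at most 3 reads in each library of the lower population. The Macrod2 site, 142253537, had 0 and 2 against 23 and 26 reads, and the Ptprd sites, 76015730 and 76387749, had 0 and 1 against 19 and 15 and 4 and 10 against 51 and 51 reads.

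Promoters of the 9 genes held few reads. The counts of all their promoter sites ranged from 0.292 CPM (Cntnap2, aOPC replicate 3) to 7.73 CPM (Nrxn3, aOPC replicate 2), and Lsamp had no promoter site. By edgeR over 14579 promoters, 0 of the 7 that could be tested were called, against a background of 0.768%, and 0 had an unadjusted p below 0.05. DESeq2 also called 0. Rbfox1 had 6.75 and 1.87 CPM in aOPC and 1.88 and 1.48 CPM in aOL (log2 difference -0.64, SE 0.41), which ranged from -0.25 without aOPC replicate 2 and -0.28 without aOL replicate 3 to -0.95 without aOL replicate 2 and -0.97 without aOPC replicate 3. The others lay between -0.38 (Dlg2) and -0.04 (Macrod2), relative to scaling on promoter counts. Scaled on plain library totals, the median of all promoters shifted to -0.60, so these values are read relative to that median.

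RNA values were present for 6 of the 9 genes among 11315 genes listed, and Rbfox1, Csmd1 and Cntnap2 had none. Ptprd had the most abundant transcript and Dlg2 the largest difference. The deposited values are log2 levels, and in sorted populations more RNA per cell and more cells that hold it cannot be told apart. By limma over 11133 genes, 0 of the 6 were called at p below 0.01 with an adjusted p below 0.05, against a background of 0.0808%, and 1 (Dlg2) had an unadjusted p below 0.05, which 24.0% of all genes had.

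Dlg2 had log2 levels of 12.11 and 11.16 in aOPC and 13.13 and 13.07 in aOL. Both aOL libraries lay above both aOPC libraries, as for 61.8% of all genes in either direction, and the log2 difference was 1.47 (SE 0.38, unadjusted p = 0.0165, adjusted p = 0.155 by limma). It passed the test without aOPC replicate 2 (1.94, adjusted p = 0.0151) and without aOPC replicate 3 (0.99, adjusted p = 0.0391), where the spread came from the aOL pair alone and 3995 and 2344 genes passed. Without aOL replicate 2 (1.44, adjusted p = 0.909) or aOL replicate 3 (1.49, adjusted p = 0.702) it did not. Of the 6 genes, Dlg2 had the largest positive difference both in gene body reads and in RNA, and neither passed the test with all libraries. The median RNA difference of the 6 was -0.11, against 0.02 over all genes.

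Nrxn3, the lowest of the 6, had 7.13 and 5.18 in aOPC and 5.28 and 4.57 in aOL, with overlapping groups (-1.23, SE 0.74, adjusted p = 0.367 by limma). The value rested on the choice of aOPC library, at -2.20 (adjusted p = 0.0465) without aOPC replicate 3 and -0.26 (adjusted p = 0.587) without aOPC replicate 2. Lsamp had 8.88 and 8.65 against 8.41 and 8.49 (-0.31, SE 0.20) and Macrod2 10.08 and 10.06 against 9.9997 and 9.88 (-0.13, SE 0.19), both with aOL below aOPC. Ptprd had 16.48 and 15.76 against 16.52 and 16.33 (0.31, SE 0.32), and Lrp1b 11.82 and 11.36 against 11.60 and 11.37 (-0.10, SE 0.26).

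Per kb of exon, with exon lengths from the GENCODE annotation of GRCm38, the mean log2 level over the 4 libraries was 11.76 in Ptprd (percentile 93.8 among genes listed), 8.34 in Dlg2 (51.0), 6.97 in Lrp1b (29.9), 6.64 in Macrod2 (26.2), 4.50 in Lsamp (9.44) and 1.89 in Nrxn3 (1.46). The order was the same in each of the 4 libraries. The order differed from that of the RRHP level per CCGG, in which Ptprd stood below Dlg2, Lrp1b, Macrod2 and Lsamp.

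**Figure D5:**
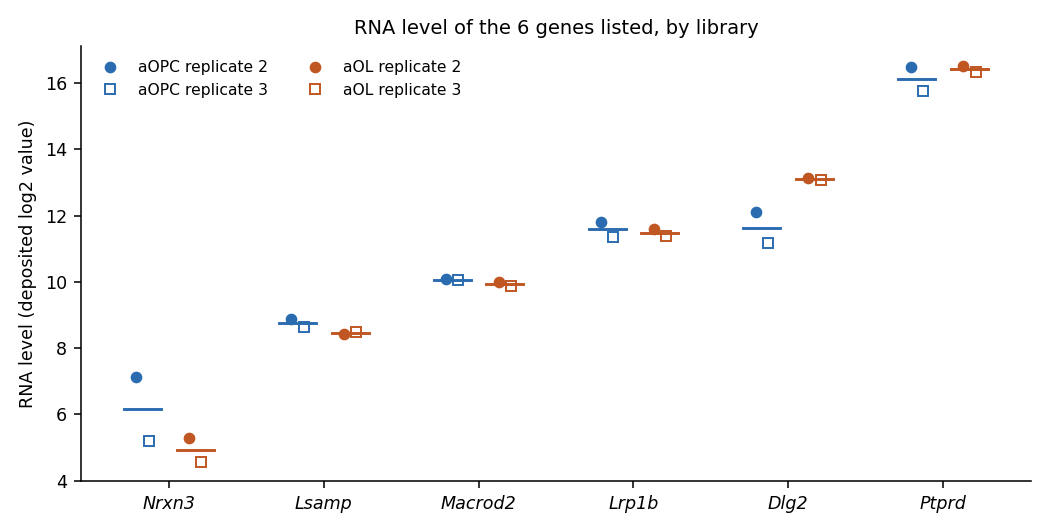
Deposited log2 RNA level (y axis, not starting at 0 and not scaled for length) of the 6 genes with values (x axis), with 1 point per library (blue aOPC, orange aOL, filled circles replicate 2, open squares replicate 3) and a bar at the mean. Dlg2 lies at 12.11 and 11.16 in aOPC and at 13.13 and 13.07 in aOL.

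Markers of the sorted cells bear on these RNA levels. The 12 tested OPC markers had a median difference of -0.67, with 4 above 0. An unadjusted p below 0.05, which 24.0% of all genes had, was found for 3, all lower in aOL: Neu4 (-5.17, SE 1.02), Vcan (-4.20, SE 1.29) and Sox6 (-1.72, SE 0.61). The 14 oligodendrocyte markers summed to log2 levels of 22.94 and 22.71 in aOPC against 22.90 and 22.92 in aOL, with a median difference of 0.00, and the groups overlapped. Opalin (-0.98, SE 0.23), Ugt8a (0.79, SE 0.22) and Cldn11 (-0.76, SE 0.24) had the smallest p among them, and an unadjusted p below 0.05 was found for 4 lower and 1 higher in aOL. These 3 genes act in myelin. The part of these transcripts in the levels of the 9 genes was not tested.

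Markers of other cells were listed unevenly. Neuron markers (12 of 18 listed, Rbfox3 and Slc17a7 among those without values) summed to 12.99 and 13.16 in aOPC and 12.84 and 12.82 in aOL, with a median difference of -0.47 over 10 tested and Stmn2 lowest in p (-2.10, SE 0.46), followed by Tubb3 (-0.46, SE 0.28) and Elavl4 (-0.78, SE 0.48). Astrocyte markers summed to 14.94 and 14.05 against 14.01 and 14.27 (median -0.60, 10 tested, with Gfap at -0.72, Slc1a3 at 0.49 and Gja1 at -1.21), and microglia markers to 12.71 and 12.01 against 12.20 and 11.77 (median -0.53, 10 tested, with Tmem119 at -0.73, C1qc at -1.37 and C1qa at -0.51). Of 12 endothelial and pericyte markers 4 were listed, with sums of 8.44 and 8.16 against 8.20 and 10.13 and a median of 1.01, led by Cldn5 (0.33 and 1.80 against 5.92 and 7.13), Vtn (1.84, SE 1.51) and Abcb1a (-0.80, SE 0.66). No marker of any list was called by limma, and the median over all genes was 0.02.

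Relatives of the 9 genes showed no called RNA difference either. All 4 other Dlg scaffolds lay above 0, with a median of 0.58 and Dlg5 at 0.65 (SE 0.33), Dlg1 at 0.52 (SE 0.31) and Dlg3 at 0.76 (SE 0.52). Among relatives of Lrp1b, Lrp6, a Wnt co-receptor, had 1.21 (SE 0.20) and Lrp1 -1.17 (SE 0.42). The IgLON genes Negr1 and Opcml had 0.71 (SE 0.26) and 0.39 (SE 0.25). The LAR phosphatases Ptprf and Ptprs had 0.64 (SE 0.22) and 0.23 (SE 0.26), and the neurexin Nrxn2 0.07 (SE 0.41). Rbfox2 had 0.48 (SE 0.22), Csmd3 -0.08 (SE 0.20), and of the macrodomain genes Macrod1 had -0.43 (SE 0.33), Parg 0.29 (SE 0.23) and Parp9 0.16 (SE 0.41). None of the 5 Caspr genes had RNA values.

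Binding partners were as mixed. Of 7 neurexin ligands tested, 5 lay above 0 (median 0.66), among them Nlgn1 at 0.95 (SE 0.21) and Nlgn3 at 0.82 (SE 0.31), while Nlgn2 had -1.33 (SE 0.32). Of 5 Ptprd ligands, 2 lay above 0 (median -0.29), with Il1rap at 0.79 (SE 0.19), Lrrc4b at -0.51 (SE 0.21) and Il1rapl1 at -0.58 (SE 0.30). Of 8 genes of the juxtaparanode and paranode, where Cntnap2 acts, 5 lay above 0 (median 0.45), with Cntn2 at 0.94 (SE 0.32), Adam22 at 0.99 (SE 0.35) and Adam23 at -0.66 (SE 0.19). The smallest adjusted p over the family and partner lists was 0.127 by limma, at Lrp6.

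The other very long brain genes listed with the 9, 69 of 71 of which had gene body sites, had 0 gene bodies called and a median log2 difference of 0.06, and 134 of their 6296 tested sites were called (2.13%, against the background of 2.29%). In RNA, 40 were tested and 0 were called (median 0.17), with Cdh13 at -1.50 (SE 0.19), Ccser1 at 0.78 (SE 0.22) and Pde4d at -1.12 (SE 0.32) lowest in p. Of the gene bodies of the family, partner and marker lists, 1 was called, that of the myelin gene Mobp (-1.16, SE 0.19, adjusted p = 0.0195 by edgeR).

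The gene bodies most like the mean of the 9, by the root mean square difference of centred log2 CPM over the 4 RRHP libraries, were Rbms3 (0.0130), Wwox (0.0134) and Alk (0.0138) among 206 of at least 500 kb, whose median was 0.0950. For the 9 the centred mean came to -0.12 and 0.03 in aOPC against 0.06 and 0.03 in aOL, and aOPC replicate 2 was the lowest library in all 4 of these profiles.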

How the data were processed

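RRHP and RNA-sequencing data of 8 libraries were analysed, 2 for each assay and population. The RRHP tables, as deposited, hold raw counts per CpG site and strand with the authors' promoter, exon, intron and CpG island labels, from reads aligned to mm10. The aligner, duplicate handling and site filter are not given in the sources used here. Same-numbered aOPC and aOL tables listed the same number of sites, and a site missing from a table was taken as 0. RNA values were deposited as normalised log2 levels that the authors made with BWA, featureCounts and DESeq2 (version 1.2.5 per the labels), with no depth kept. The transformation behind them is not given in the sources used here, so a log2 difference is one on the deposited scale.

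Sites, gene bodies, promoters and 100 kb segments went through the edgeR (4.0.16) quasi-likelihood test after TMM scaling on library totals. A single site entered when 2 or more libraries held 10 or more of its counts. Gene bodies, promoters and segments had a different low-count filter. It left out, for example, the Csmd1 segment from 500 to 600 kb, with 3 and 11 counts in aOPC against 9 and 13 in aOL. For RNA, limma (3.58.1) took genes whose value reached 5 in 2 or more libraries. P-values were adjusted by Benjamini and Hochberg over all features of a table. DESeq2 (1.42.0), other scalings and filters, a replicate block and each library left out were tried, and summing the ends of a fragment was added after the data were seen. Scripts were tested on simulated data. The 9 genes and all lists were chosen with earlier results of these data known. Every gene of the 9 is named. So are the most-read site of each, up to 3 called sites per direction with the largest change and 50 or more reads in each library of the higher population, called segments, the densest segment per gene, and the 3 genes of each list with the smallest p. A few genes that this rule would name are not reported here.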

Additional observations from a re-analysis of the deposited data

How the results depend on the processing

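Recomputed under each alternative in turn, the 9 summary results gave 74 values rated as kept and 26 rated as moved. A count was kept when equal to, or within 1.5 times of, the value reported. The share of library counts was kept when its ratio of aOL to aOPC stayed on the same side of 1. Sites called higher (36) became 18 with DESeq2 and 4 with at least 10 reads in every library, and sites called lower (28) became 0 with 10 reads in every library and 62 with 10 reads over the 4 libraries. Rbfox1 sites (31) became 0 and 54 under these last filters, and Dlg2 sites (23) became 4 and 37, and 14 with DESeq2. Called segments (3) became 1 with only sites of 3 reads in every library and 5 each with relative log expression factors and with library totals. With the ends of a fragment summed, 35 fragments were called higher and 21 lower. Leaving out 1 library gave 4 to 45 sites higher, 4 to 27 lower, 12 to 19 in Rbfox1, 7 to 27 in Dlg2, 4 to 32 segments, 0 to 2 gene bodies and 0 to 2 genes in RNA. The 4 sites higher came without aOL replicate 2, the 4 lower without aOPC replicate 2 and the 32 segments without aOPC replicate 3, where 28 of 71 called sites were also called with all libraries. The whole tables moved too. All sites called higher went from 5382 to 2378 with DESeq2, 229 of 171055 with 10 reads in every library and 306 without aOL replicate 2, all sites called in either direction from 10154 to 21056 with 10 reads over the 4 libraries, and all segments called from 84 to 988 without aOPC replicate 3. The cause was not tested.

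Directions that reversed were, with only sites of 3 reads in every library, the bodies of Rbfox1 (0.11), Ptprd (-0.021) and Macrod2 (-0.047) and the Rbfox1 segment from 1200 to 1300 kb (0.29), and, with the methods' read totals, the bodies of Rbfox1 (0.19) and Cntnap2 (0.29). Leaving out 1 library at a time, the body of Rbfox1 ranged from -0.30 to 0.024, Csmd1 from -0.12 to 0.15, Lrp1b from -0.054 to 0.24, Ptprd from -0.016 to 0.034 and Macrod2 from -0.020 to 0.069. The promoter of Csmd1 ranged from -1.09 to 0.051, Lrp1b from -0.35 to 0.33, Ptprd from -0.21 to 0.058 and Macrod2 from -0.52 to 0.62, and the RNA of Lrp1b from -0.33 to 0.13 and Ptprd from -0.052 to 0.67. Without a reversal, Lsamp RNA ranged from -0.43 to -0.20, Macrod2 RNA from -0.19 to -0.069 and the Nrxn3 promoter from -0.44 to -0.061, the Dlg2 promoter gave -0.21 without aOL replicate 3, and the Rbfox1 site at 6747439 gave 9.19 without aOPC replicate 3. Of the values that reversed, only the Rbfox1 segment was called with all libraries.

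Same-numbered libraries came from different mouse lines, and no source says that a number marks a shared batch, although same-numbered RRHP tables list the same number of sites (correlation of deviations -0.41 in gene bodies and -0.07 in RNA). With the replicate number as a block, 68 sites were called, among them all 64, with 0 gene bodies, 0 promoters, 3 segments and 0 genes in RNA. Depth limits single sites, since 3 counts are 0.422 CPM in aOPC replicate 2, and 2 libraries per population limit every test.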

Other observations

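The part of Dlg2 that the authors' symbols did not cover held 213 sites, with 115 and 117 CPM in aOPC and 111 and 133 CPM in aOL, and 0 of its 46 tested sites were called by edgeR. In the uncovered part of Lsamp, 3 of 105 tested sites were called. Beside both counts stands the background of 2.29% called over all tested sites. No hypothesis was tested on these values.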
